A study of Mus musculus with 16 samples.

Results

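The interleukin, TNF and colony-stimulating families were read from the authors' normalized table by taking every probe whose symbol begins with Il, Tnf or Csf in the form of those families, together with Lif, Lifr and Osmr. This gave 127 probes of 24040, standing for 79 genes of 16537 symbols: 23 ligands, 42 signalling receptor chains, 6 decoy receptors or antagonists, and 8 induced or otherwise related genes. Each gene is shown by the brightest of its probes on average, and its other probes are given where they differ. The study sorted pericytes and endothelial cells from primary tumours of 67NR, a mouse mammary carcinoma line, and measured their RNA on the Illumina MouseWG-6 v2.0 array platform, a set of bead-bound probes. The hosts were all female, BALB/c with the Ub-GFP transgene and 6 to 8 weeks old, and carried 67NR cells in the mammary fat pad. Tumours were taken at a mean diameter of 10 mm, reached after 2 to 4 weeks. The 4 groups, with 4 arrays each, were pericytes from endosialin wild-type hosts, pericytes from endosialin-knockout hosts, endothelial cells from wild-type hosts and endothelial cells from knockout hosts. No group received a drug, and cells were not cultured after the sort. Before labelling the RNA was amplified (Ovation Pico WTA System V2). Each array received 1.6 µg of cRNA. No source used here gives the gate markers, the kind of endosialin allele, the number of mice behind an array or whether replicates are separate animals, so the p-values speak of the spread among these arrays, which may be technical.

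Interleukins, TNF superfamily ligands and colony-stimulating factors are secreted or membrane-bound messengers, and a cell answers one only if it carries the matching receptor chains. Ligands of the IL-6 family bind a private receptor and share the transducer gp130, encoded by Il6st. IL-1 family ligands and TNF signal through MyD88 or TRAF proteins to NF-kB, and decoy receptors and antagonists of both systems bind without signalling. In tumour stroma these factors are known for drawing and shaping myeloid cells and for acting on fibroblasts, pericytes and endothelium.

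The ligands Il6, Il11, Lif, Csf1 and Il33 were all higher in pericytes than in endothelial cells, and the 250 bases before their gene starts are shown because these are the signals that the pericyte arrays carried. The sequences are from RefSeq on the mouse assembly GRCm38.p6, written 5′ to 3′ on the gene's strand. Capitals mark matches to 4 motifs searched on both strands: the NF-kB consensus, AP-1 as TGANTCA, STAT as TTCNNNGAA and CRE as TGACGTCA, and the matches shown do not overlap. A match is a run of letters, not a binding site.
Il6 at chr5:30012864-30013113, plus strand: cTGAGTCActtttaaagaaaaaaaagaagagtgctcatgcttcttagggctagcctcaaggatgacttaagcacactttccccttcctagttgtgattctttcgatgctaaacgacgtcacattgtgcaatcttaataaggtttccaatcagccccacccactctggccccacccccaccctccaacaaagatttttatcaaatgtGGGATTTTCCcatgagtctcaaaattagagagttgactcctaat
Il11 at chr7:4778142-4778391, minus strand: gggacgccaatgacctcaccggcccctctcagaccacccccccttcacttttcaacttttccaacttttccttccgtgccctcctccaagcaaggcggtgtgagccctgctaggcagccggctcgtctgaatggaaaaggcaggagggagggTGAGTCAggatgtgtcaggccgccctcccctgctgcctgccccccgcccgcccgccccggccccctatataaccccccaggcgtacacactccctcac
Lif at chr11:4257318-4257567, plus strand: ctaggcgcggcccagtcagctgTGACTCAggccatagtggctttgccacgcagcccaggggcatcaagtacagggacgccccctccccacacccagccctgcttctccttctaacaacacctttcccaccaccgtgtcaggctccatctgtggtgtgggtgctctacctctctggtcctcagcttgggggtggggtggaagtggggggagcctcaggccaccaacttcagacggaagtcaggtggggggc
Csf1 at chr3:107760470-107760719, minus strand: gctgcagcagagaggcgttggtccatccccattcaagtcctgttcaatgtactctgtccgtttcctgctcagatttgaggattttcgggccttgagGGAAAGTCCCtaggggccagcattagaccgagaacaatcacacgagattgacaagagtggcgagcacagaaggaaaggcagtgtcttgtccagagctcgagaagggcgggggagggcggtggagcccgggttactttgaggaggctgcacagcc
Il33 at chr19:29924863-29925112, plus strand: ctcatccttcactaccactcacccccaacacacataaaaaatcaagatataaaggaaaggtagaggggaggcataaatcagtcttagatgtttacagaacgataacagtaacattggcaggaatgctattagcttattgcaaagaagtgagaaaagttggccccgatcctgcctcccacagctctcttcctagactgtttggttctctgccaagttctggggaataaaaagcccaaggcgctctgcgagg
The Il6 window holds an NF-kB match at -44 and an AP-1 match at -249, counted in bases from the gene start to the first base of the match. In the Il11 window an AP-1 match lies at -98, in the Lif window an AP-1 match lies at -228, and in the Csf1 window an NF-kB match lies at -154. The Il33 window printed and the windows of a second annotated start of Il33 and of Il11 hold 0 matches, which says only that these letters are not in the windows. Of 32851 windows of the same length, 3.9% hold the NF-kB consensus, 6.75% the letters of AP-1, 7.02% STAT and 1.55% CRE.

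Values are normalized log2 intensities, with array medians between 7.18 and 7.21, a lowest value of 6.58 and a highest of 14.5. The scale is compressed near its floor, so folds of dim transcripts are understated. Cd248, the endosialin gene, had values between 10.75 and 11.19 in wild-type pericytes and between 6.96 and 7.21 in knockout pericytes, a log2 difference of -3.89, and the endothelial arrays lay at or below 7.44. The labelled cell types were checked against marker lists. All 8 endothelial markers were lower in the pericyte sort, whose array means of that list were at most 7.34 against 9.59 to 9.76. Of 8 pericyte markers 5, Cd248 among them, were higher in wild-type pericytes, while Mcam was lower and Kcnj8 and Abcc9 did not pass. In knockout pericytes 4 were higher and 1 lower. Array means of the list were 8.76 to 10.16 in wild-type and 8.65 to 8.93 in knockout pericytes, against 7.95 to 8.34 in endothelial arrays. All 6 fibroblast markers were also higher in the pericyte sort, with array means of 10.34 to 11.16 against 6.78 to 6.99 in the endothelial arrays. Keratinocyte markers averaged 7.39, 9.40, 9.49 and 8.94 in knockout pericyte replicates 1 to 4, 6.94 to 7.57 in wild-type pericytes and at most 6.89 in endothelial arrays. Mast cell markers averaged 7.14 to 9.94 over the pericyte arrays and 7.31 to 7.47 over the endothelial arrays. Of the 8 measured, 3 were higher and 1 lower in wild-type pericytes, and 5 and 1 in knockout. Il1rl1, itself a member of the families, was among the higher ones in both. The lower marker in both was Kit. The 3 measured macrophage markers were never above the array median on all arrays of a group. Except where a value below bears on it, the part of these other cell types in the results was not tested.

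Most members that differed between the cell types were higher in pericytes. In wild type 42 of 79 genes passed, against 26.1% of all 16537 genes (limma, Benjamini-Hochberg adjusted p under 0.05 over all probes), of which 31 were higher in pericytes (12.8% of all genes) and 11 lower (13.3%). In knockout hosts 41 passed, against 26.9% of all genes, with 30 higher (13.4%) and 11 lower (13.5%). The 2 comparisons share no array. Higher in both genotypes were 28 genes, against 9.71% of all genes, and lower in both were 11, against 9.94%, while 0 were called in opposite directions. The median log2 difference of the 79 genes was 0.10 in each genotype, beside -0.012 in wild type and -0.015 in knockout over all genes. In bulk samples such as these, fewer cells that carry a transcript and less of it per cell cannot be told apart. Wild-type pericyte and endothelial arrays did not overlap for 42 of the 79 genes, against 27% of all genes, and knockout arrays did not overlap for 46, against 29.6%. A difference of 2-fold or more was reached by 18 genes in wild type (5.53% of all genes) and 15 in knockout (5.88%). By probe, 74 of the 127 passed in wild type (25.9% of all probes) and 71 in knockout (26.5%). With the mean of the keratinocyte markers as a covariate 73 passed in wild type and 42 in knockout, while the knockout calls over all probes went from 6366 to 2793. Without the 3 keratinocyte-high arrays 48 member probes and 3214 of all probes passed in knockout, so the loss was shared by the whole array.

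**Figure D1:**
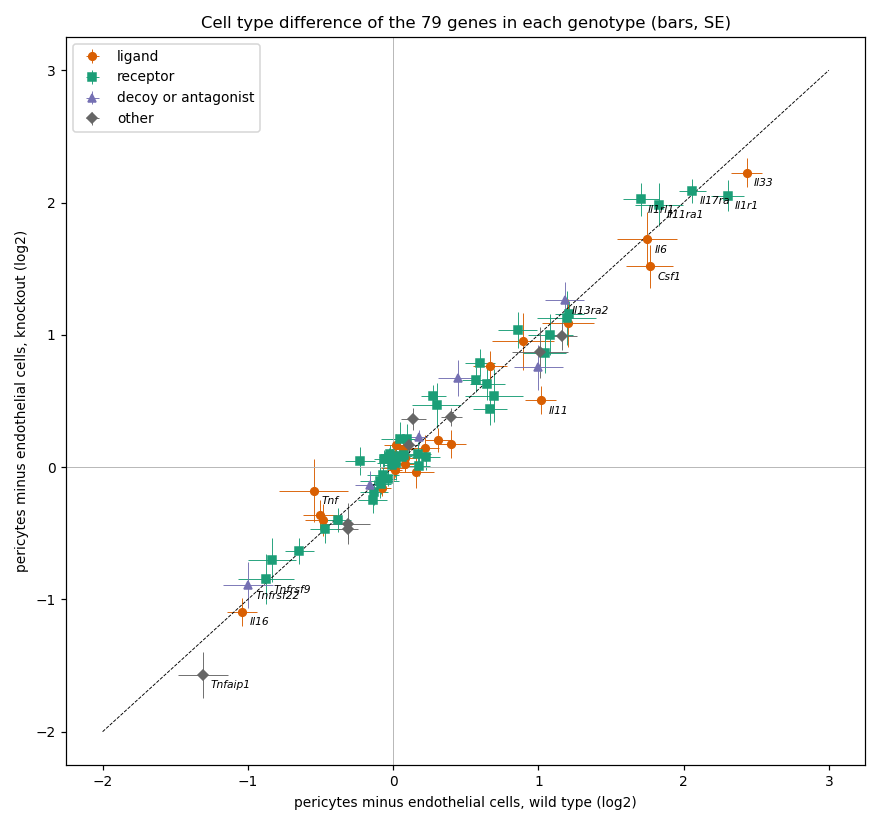
Log2 difference between pericytes and endothelial cells for the 79 genes, wild type on the horizontal axis and knockout on the vertical axis, with bars for the SE and a dashed line where both would be equal. Il33, Il1r1 and Il17ra lie at the upper end and Tnfaip1 at the lower end, and no called gene changes side.

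**Figure D2:**
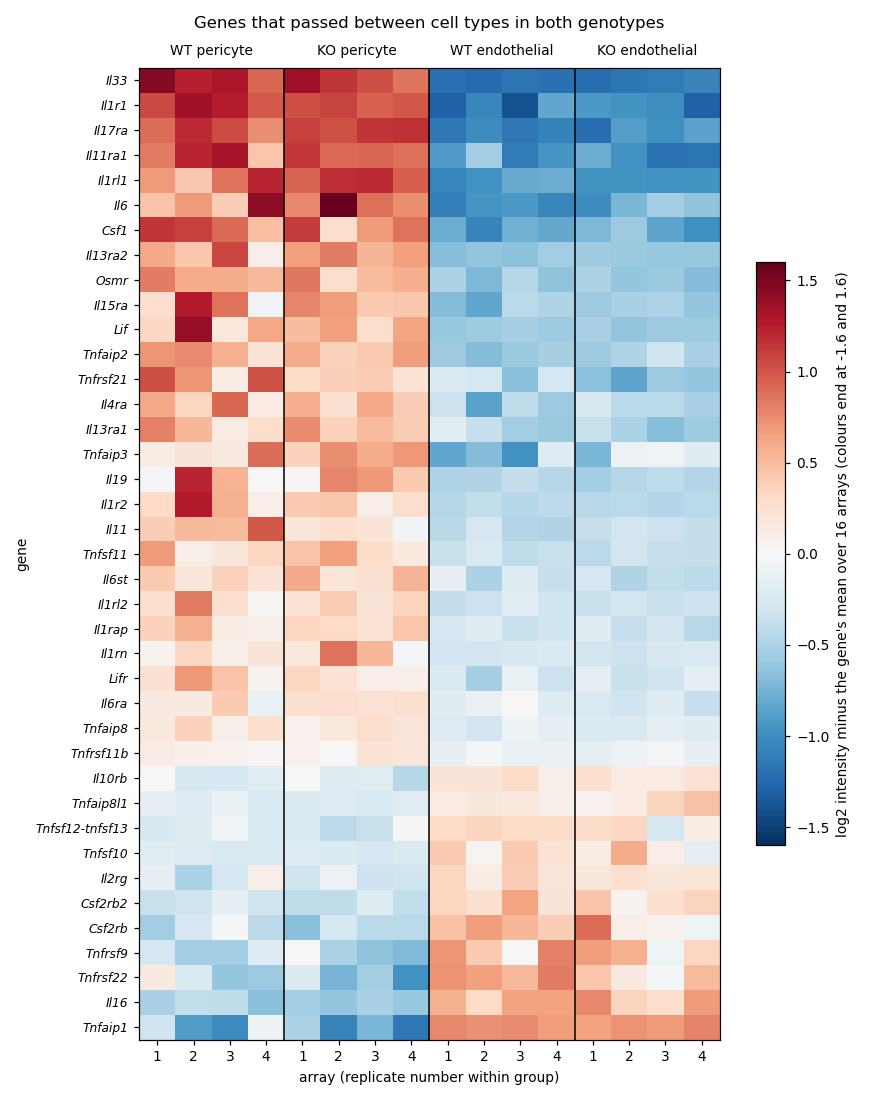
Log2 intensity minus each gene's mean over the 16 arrays for the 39 genes that passed between the cell types in both genotypes, one column per array. The 28 genes higher in pericytes stand above the 11 that were lower, and single arrays, such as wild-type pericyte replicate 2 for Lif, Il19 and Il1r2, stand out within a group.

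Of the 23 ligands, 9 were higher in wild-type pericytes (12.8% of all genes), 3 lower (13.3%) and 11 did not pass. The counts in knockout hosts were 7 (13.4%), 3 (13.5%) and 13. The lower counts were near the share of all genes. Il6 (ILMN_1243601), the IL-6 cytokine, read 9.42, 9.64, 9.36 and 10.39 in wild-type pericytes and 9.73, 10.53, 9.84 and 9.70 in knockout pericytes. In endothelial cells it read 7.86, 8.01, 8.03 and 7.92 in wild type and 7.96, 8.22, 8.42 and 8.31 in knockout. Every pericyte array lay above every endothelial array, and the genotypes overlapped within each cell type. The difference was 1.75 in wild type (SE 0.21, 3.35-fold; limma, adjusted p = 5.49e-06) and 1.72 in knockout (3.30-fold; limma, adjusted p = 6.58e-06).

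Lif (ILMN_3137291), the leukaemia inhibitory factor that acts through Lifr and gp130, read 7.71, 8.77, 7.55 and 8.00 in wild-type pericytes and 7.87, 8.03, 7.66 and 8.01 in knockout pericytes. Its endothelial values ran from 6.75 to 6.86 over the 8 arrays of both genotypes. Wild-type pericyte replicate 2 was the highest array, and no pericyte array came near the endothelial range. Pericytes were higher by 1.20 in wild type (SE 0.18, 2.30-fold; limma, adjusted p = 7.30e-05) and by 1.09 in knockout (limma, adjusted p = 0.000196). All 4 Lif probes were higher in both genotypes.

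Il11 (ILMN_1243862), the gp130 cytokine interleukin-11, read 7.64, 7.77, 7.76 and 8.25 in wild-type pericytes and 7.45, 7.52, 7.46 and 7.21 in knockout pericytes. In endothelial cells it read 6.81, 6.98, 6.78 and 6.78 in wild type and 6.88, 6.94, 6.92 and 6.88 in knockout, all below the array medians. All pericyte arrays lay above all endothelial arrays, and knockout replicate 4 was the pericyte array closest to them. The cell type difference was 1.02 in wild type (SE 0.11, 2.02-fold; limma, adjusted p = 1.28e-06) and 0.50 in knockout (SE 0.11, 1.42-fold; limma, adjusted p = 0.0017). The knockout difference did not pass with the keratinocyte covariate (0.49; limma, adjusted p = 0.158) or without the 3 knockout pericyte arrays with high keratinocyte markers (0.54; limma, adjusted p = 0.0558). The 5 probes outside the families whose values followed Il11 most closely over the 16 arrays were Cenpo (Pearson r = 0.984), Prkg1 (0.959), Pde1a (0.954), LOC382171 (0.953) and Adk (0.952), as a description only, since the 16 arrays share the split between cell types.

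Il33 (ILMN_1259747), the nuclear alarmin of the IL-1 family, had the largest cell type difference of the 79 genes in both genotypes, by the brightest probes. It read 9.45, 9.23, 9.28 and 8.89 in wild-type pericytes and 9.34, 9.12, 9.01 and 8.84 in knockout pericytes, while the 8 endothelial arrays lay between 6.74 and 6.92. The groups of the 2 cell types were far apart and those of the 2 genotypes overlapped. Pericytes were 5.40-fold higher in wild type (log2 2.43, SE 0.11; limma, adjusted p = 2.91e-11) and 4.68-fold higher in knockout (limma, adjusted p = 8.97e-11). The other IL-1 ligands measured, Il1a and Il1b, did not pass, and their wild-type differences were 0.01 and 0.08.

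Csf1 (ILMN_1254561), the growth factor of macrophages, read 9.08, 9.03, 8.84 and 8.42 in wild-type pericytes and 9.06, 8.22, 8.62 and 8.80 in knockout pericytes. Endothelial values were 7.14, 6.88, 7.16 and 7.11 in wild type and 7.21, 7.36, 7.10 and 6.96 in knockout. Pericyte and endothelial arrays did not overlap, and the difference was 1.77 in wild type (SE 0.16, 3.40-fold; limma, adjusted p = 2.75e-07) and 1.52 in knockout (2.86-fold; limma, adjusted p = 1.76e-06). Csf2 and Csf3, the factors of granulocytes and macrophages and of granulocytes, did not pass, with wild-type differences of 0.22 and -0.07. Without single arrays Csf2 ran from 0.12, without wild-type pericyte replicate 4, to 0.31, without replicate 1 of that group, where it passed (limma, adjusted p = 0.347 and 0.0153). Csf3 passed as lower in pericytes than in endothelial cells of knockout hosts under 5 of the alternatives, with values from -0.20 to -0.16 (limma, adjusted p from 0.0351 to 0.0484).

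Il19, an IL-10 family cytokine, read 7.22, 8.47, 7.81 and 7.26 in wild-type pericytes and 7.27, 8.03, 7.94 and 7.67 in knockout pericytes, against 6.70 to 6.86 in the endothelial arrays. Its pericyte arrays ranged widely, yet the lowest still lay above the highest endothelial array. The difference was 0.90 in wild type and 0.95 in knockout (limma, adjusted p = 0.00474 and 0.00303). Il10, Il24, Il13 and Il15 did not pass in either genotype.

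Among ligands of the TNF superfamily, Tnfsf11, which encodes the osteoclast factor RANKL, was higher in pericytes by 0.67 in wild type and 0.76 in knockout (limma, adjusted p = 0.000292 and 8.10e-05). Tnfsf9, the 4-1BB ligand, and Tnfsf13b, the B cell factor BAFF, passed in wild type with 0.40 and 0.31, and their knockout differences of 0.18 and 0.20 did not pass (limma, adjusted p = 0.24 and 0.112). For both genes wild-type pericyte replicate 2 was the highest of the 16 arrays, at 7.63 and 7.48. Whether the cell type difference of Tnfsf9 differed between genotypes was tested directly and did not pass (-0.22; limma, adjusted p = 1).

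Ligands lower in pericytes were Il16, Tnfsf10 and Tnfsf12-tnfsf13. Il16 (ILMN_2671738), a chemoattractant for CD4 cells, read 6.99, 7.12, 7.10 and 6.83 in wild-type pericytes, and 8.07, 7.83, 8.16 and 8.15 in wild-type endothelial cells. Knockout values were 6.97, 6.89, 6.99 and 6.90 in pericytes and 8.28, 7.86, 7.78 and 8.19 in endothelial cells. All 8 pericyte arrays lay below the array medians and all 8 endothelial arrays above them, with a difference of -1.04 in wild type (SE 0.11; limma, adjusted p = 9.78e-07) and -1.09 in knockout (limma, adjusted p = 5.60e-07). Tnfsf10, the death ligand TRAIL, was lower in pericytes, with differences of -0.48 in wild type and -0.40 in knockout (limma, adjusted p = 0.00567 and 0.0198). The knockout difference of Tnfsf10 did not pass without knockout endothelial replicate 2 (-0.26; limma, adjusted p = 0.0513), which at 7.57 was its highest array.

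Tnf itself read 6.74, 6.76, 6.79 and 6.97 in wild-type pericytes, 6.78, 7.31, 7.16 and 6.82 in knockout pericytes, 6.89, 8.30, 7.01 and 7.26 in wild-type endothelial cells, and 6.85, 7.59, 7.26 and 7.08 in knockout endothelial cells. Replicate 2 was the highest array in 3 of the groups, and the groups overlapped. The wild-type difference of -0.55 did not pass (SE 0.24; limma, adjusted p = 0.111). Without single arrays it ran from -0.24, without wild-type endothelial replicate 2, to -0.71, without replicate 1 of that group, where it passed (limma, adjusted p = 0.339 and 0.0499).

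**Figure D3:**
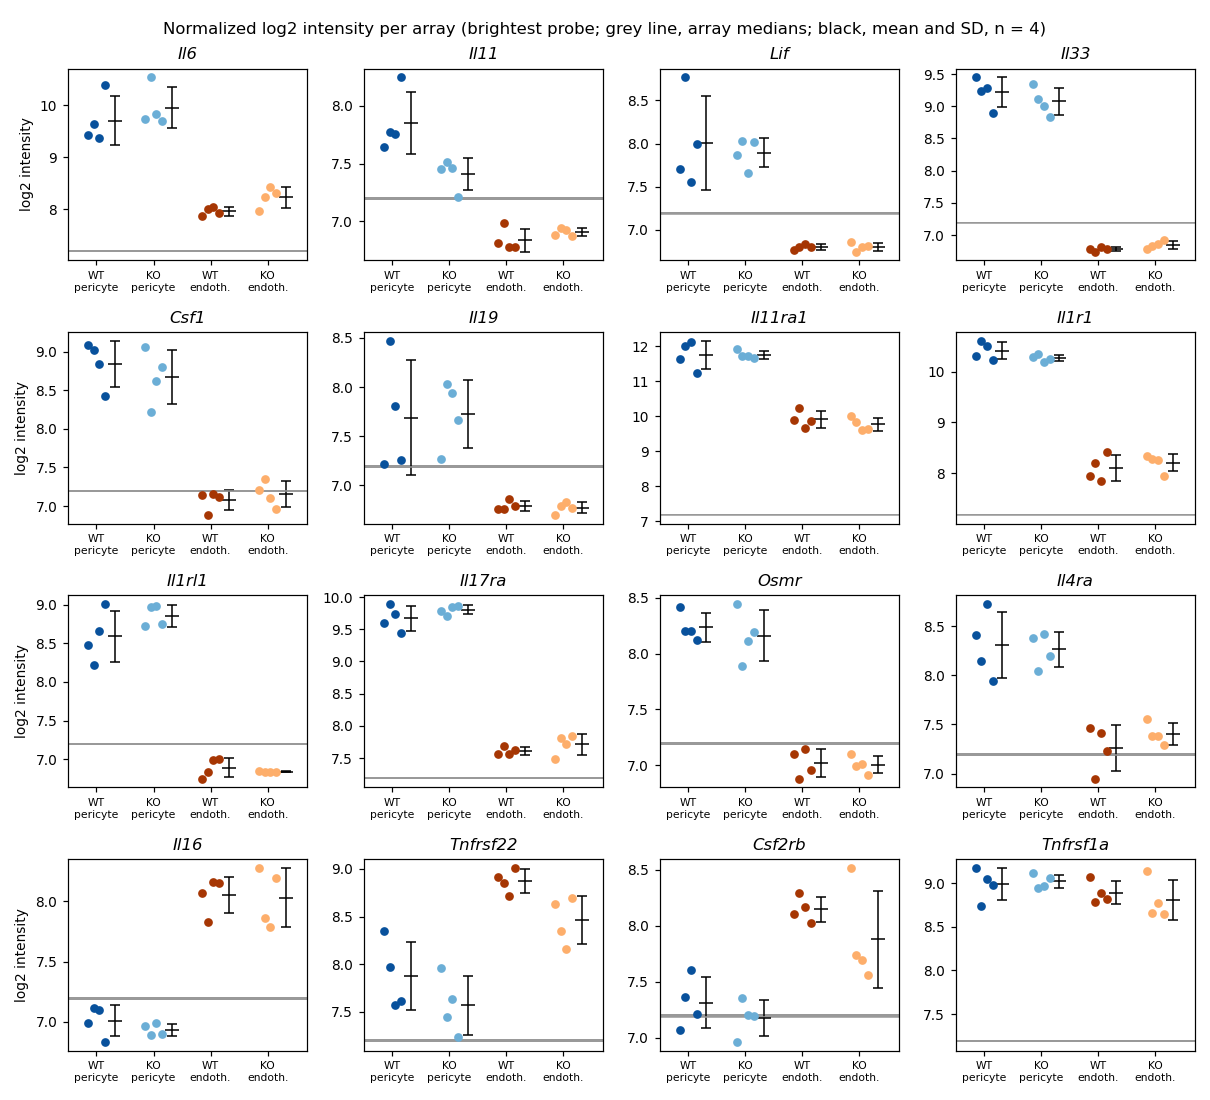
Normalized log2 intensity on each array for 16 genes in the 4 groups, with the mean and SD (n = 4) beside the points and the array medians as a grey line. The first 12 genes are higher in pericytes, Il16, Tnfrsf22 and Csf2rb are lower, and Tnfrsf1a overlaps in all 4 groups.

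Of 42 signalling receptor chains, 15 were higher in wild-type pericytes (12.8% of all genes), 5 lower (13.3%) and 22 did not pass. In knockout there were 14 (13.4%), 5 (13.5%) and 23, and the lower counts were again near the share of all genes. In the IL-6 family 8 of 9 genes, ligands included, were higher in both genotypes, against 9.71% of all genes. Il27ra, a chain of the IL-27 receptor, did not pass. Il11ra1 (ILMN_1229957), the private receptor of Il11, read 11.62, 12.01, 12.12 and 11.24 in wild-type pericytes and 11.93, 11.70, 11.71 and 11.67 in knockout pericytes. Its endothelial values were 9.89, 10.25, 9.67 and 9.86 in wild type and 10.01, 9.83, 9.62 and 9.63 in knockout. It lay far above the array medians on every array, and pericytes were 3.56-fold higher in wild type and 3.96-fold in knockout (log2 1.83 and 1.98; limma, adjusted p = 2.20e-07 and 8.49e-08). Mice carry a near-identical copy of this gene, Il11ra2, and which of the copies the probes detect is uncertain.

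Il6st (ILMN_2608184), the shared gp130 chain, was above the array medians in all groups, with means of 8.65 ± 0.11 and 8.75 ± 0.21 in wild-type and knockout pericytes against 8.05 ± 0.17 and 7.96 ± 0.09 in the endothelial cells (SD, n = 4). It was higher in pericytes by 0.60 and 0.79 (limma, adjusted p = 0.000284 and 1.68e-05). Osmr, the oncostatin M receptor, read 8.42, 8.20, 8.20 and 8.12 in wild-type pericytes and 8.44, 7.89, 8.12 and 8.19 in knockout pericytes, while its 8 endothelial arrays lay between 6.88 and 7.14. The pericyte arrays stood apart from the endothelial arrays, 2.32-fold higher in wild type and 2.23-fold in knockout (limma, adjusted p = 8.80e-08 and 1.60e-07). Lifr was higher by 0.67 and 0.44 (limma, adjusted p = 0.000426 and 0.0109), and 2 of its 3 probes passed in each genotype. Il6ra, the private receptor of Il6, was higher by 0.28 and 0.53 (limma, adjusted p = 0.0247 and 0.00015). The wild-type difference of Il6ra did not pass without wild-type pericyte replicate 3 (0.19; limma, adjusted p = 0.081), without wild-type endothelial replicate 1 (0.25; 0.0688) or replicate 4 (0.25; 0.0682).

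In the IL-1 family 7 of 11 genes were higher in pericytes in both genotypes, against 9.71% of all genes, and 0 were lower, against 9.94%. Il1r1 (ILMN_2711615), the signalling receptor of IL-1, read 10.31, 10.61, 10.50 and 10.24 in wild-type pericytes and 10.28, 10.34, 10.19 and 10.25 in knockout pericytes. Endothelial values were 7.96, 8.21, 7.86 and 8.42 in wild type and 8.34, 8.29, 8.26 and 7.96 in knockout. No pericyte array fell within the endothelial range, and the difference was 4.93-fold in wild type and 4.15-fold in knockout (log2 2.30 and 2.05; limma, adjusted p = 1.74e-10 and 7.35e-10). Il1rap, the accessory chain that Il1r1 and Il1rl1 share, was higher by 0.57 and 0.66, on 5 of 5 probes in both genotypes. Il1rl2, the receptor of IL-36, was higher by 0.65 and 0.63.

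Il1rl1 (ILMN_2757617), the receptor of Il33, read 8.48, 8.22, 8.66 and 9.01 in wild-type pericytes and 8.73, 8.97, 8.99 and 8.75 in knockout pericytes, against 6.75 to 6.99 in the endothelial arrays. Pericytes were 3.26-fold higher in wild type and 4.07-fold in knockout (log2 1.70 and 2.02; limma, adjusted p = 1.63e-08 and 1.89e-09). Il1rl1 is also on the mast cell list, so the mean of that list contains it. The list mean was 7.14, 7.75, 9.33 and 9.94 in wild-type pericyte replicates 1 to 4 and 7.30, 8.95, 9.64 and 8.83 in the knockout ones. Replicate 1 of each genotype, where that mean was lowest, read 8.48 and 8.73 on this probe. A second Il1rl1 probe (ILMN_1243504) read 7.52, 8.25, 8.13 and 8.67 in wild-type pericytes and 7.67, 8.94, 8.60 and 8.53 in knockout pericytes, lowest in replicate 1 of each genotype. It was higher in pericytes by 1.34 and 1.67 (limma, adjusted p = 0.000281 and 2.97e-05), and the part of mast cells in either probe's result was not tested. Il18r1 and Il18rap, the chains of the IL-18 receptor, did not pass. On the RefSeq gene order of GRCm38.p6, Il1r2, Il1r1, Il1rl2, Il1rl1, Il18r1 and Il18rap are neighbours on chromosome 1. Of these 6, 4 were higher in pericytes in both genotypes, against 9.71% of all genes. The neighbours Osmr and Lifr on chromosome 15 were both higher, and the neighbours Csf2rb2 and Csf2rb on that chromosome both lower. In the other neighbouring sets fewer members passed. Il19 alone passed beside Il24 and Il10, Il4ra alone beside Il21r, and Tnfrsf22 alone, as lower, beside Tnfrsf26 and Tnfrsf23. Of Tnfsf9 and Tnfsf14, Tnfsf9 alone passed, in wild type only. Il1a and Il1b, and Il17re and Il17rc, did not pass.

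Il17ra (ILMN_2655024), the common chain of IL-17 receptors, read 9.60, 9.89, 9.74 and 9.44 in wild-type pericytes and 9.79, 9.71, 9.85 and 9.87 in knockout pericytes. Endothelial arrays lay between 7.48 and 7.84. The tight groups did not overlap, and pericytes were 4.17-fold higher in wild type and 4.26-fold in knockout (log2 2.06 and 2.09; limma, adjusted p = 3.71e-11 and 3.27e-11). Il17rd, a related chain, passed in wild type with 0.70, while its knockout difference of 0.54 did not (limma, adjusted p = 0.0168 and 0.0592). The other Il17rd probe passed in both, with 0.69 and 0.47 (limma, adjusted p = 0.00059 and 0.0122). Il17rc and Il17re, which partner Il17ra, did not pass.

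The chains of the type II IL-4 and IL-13 receptor were both higher in pericytes. Il4ra, the IL-4 receptor chain, read 8.41, 8.15, 8.72 and 7.94 in wild-type pericytes and 8.39, 8.05, 8.42 and 8.20 in knockout pericytes, against 6.95 to 7.56 over the endothelial arrays. These ranges did not touch, and the difference was 1.04 in wild type and 0.86 in knockout (limma, adjusted p = 4.06e-05 and 0.000286). Il13ra1, its partner, was higher by 0.86 and 1.04 (limma, adjusted p = 0.000124 and 1.69e-05). Il15ra, which presents IL-15, was higher by 1.20 and 1.13 on its brightest probe, and all 4 of its probes passed in both genotypes. Il2rg, the common gamma chain of lymphocyte cytokine receptors, went the other way, with -0.47 in each genotype (limma, adjusted p = 0.00258 and 0.00254), and its other probe did not pass. Il10rb, the shared chain of IL-10 and lambda interferon receptors, was lower in pericytes with differences of -0.38 and -0.40 (limma, adjusted p = 0.00374 and 0.00248).

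Csf2rb (ILMN_2688262), the beta chain of receptors for IL-3, IL-5 and GM-CSF, and the related mouse beta chain Csf2rb2 were lower in pericytes. Csf2rb read 7.07, 7.36, 7.60 and 7.21 in wild-type pericytes and 8.10, 8.29, 8.16 and 8.02 in wild-type endothelial cells. In knockout hosts it read 6.96, 7.35, 7.20 and 7.19 in pericytes and 8.52, 7.74, 7.70 and 7.56 in endothelial cells. The cell types did not overlap within a genotype, and knockout endothelial replicate 1 was the highest array. The differences were -0.83 and -0.70 for Csf2rb (limma, adjusted p = 0.00118 and 0.00458) and -0.65 and -0.63 for Csf2rb2 (limma, adjusted p = 9.69e-05 and 0.000116). The genes are close copies of each other, so how far their probes are independent is uncertain. Csf2ra, the private GM-CSF chain, lay at or below the array medians on all 16 arrays.

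The TNF superfamily held 24 genes, ligands and decoys included. Of these, 5 were higher in wild-type pericytes (12.8% of all genes), 4 lower (13.3%) and 15 did not pass. In knockout the counts were 3 (13.4%), 4 (13.5%) and 17. Tnfrsf21 (ILMN_2901626), death receptor 6, read 8.84, 8.51, 7.92 and 8.82 in wild-type pericytes and 8.10, 8.18, 8.21 and 8.03 in knockout pericytes. Endothelial arrays read 7.57, 7.52, 7.14 and 7.52 in wild type and 7.14, 6.95, 7.23 and 7.18 in knockout. Pericytes were above endothelial cells on every array, by 1.08 and 1.00 (limma, adjusted p = 5.58e-05 and 0.000124). Tnfrsf9, the costimulatory receptor 4-1BB, was lower in pericytes with -0.87 and -0.85 (limma, adjusted p = 0.00246 and 0.00317), on 2 of its 3 probes. Tnfrsf1a, the main TNF receptor, read between 8.65 and 9.18 on all 16 arrays. Its groups overlapped, and the differences of 0.10 and 0.21 did not pass (limma, adjusted p = 0.576 and 0.175); it passed in knockout hosts without knockout endothelial replicate 1 (0.32; limma, adjusted p = 0.0211). Tnfrsf1b, the second TNF receptor, and Tnfrsf12a, the receptor of TWEAK, did not pass.

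Of 6 decoys and antagonists, 4 were higher in pericytes in both genotypes (9.71% of all genes), 1 was lower in both (9.94%) and Tnfrsf23 did not pass. Il13ra2, a decoy for IL-13, read 7.94, 7.76, 8.40 and 7.44 in wild-type pericytes and 7.98, 8.15, 7.88 and 7.99 in knockout pericytes, against 6.66 to 6.77 in endothelial arrays. The ranges were clearly apart, 2.27-fold in wild type and 2.40-fold in knockout (limma, adjusted p = 3.87e-06 and 1.79e-06). Il1r2, the decoy receptor of IL-1, read 7.51, 8.46, 7.76 and 7.29 in wild-type pericytes and 7.61, 7.64, 7.29 and 7.47 in knockout pericytes, and 6.72 to 6.79 in endothelial arrays. Wild-type replicate 2 was again the highest, and the differences were 1.00 and 0.75 (limma, adjusted p = 0.000251 and 0.00286).

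Il1rn, the IL-1 receptor antagonist, read 7.15, 7.42, 7.19 and 7.30 in wild-type pericytes and 7.26, 7.97, 7.63 and 7.07 in knockout pericytes, with 6.75 to 6.87 in endothelial arrays. It was higher in pericytes by 0.44 and 0.67 (limma, adjusted p = 0.0231 and 0.00129). Its knockout difference was 0.29 with the keratinocyte covariate and did not pass (limma, adjusted p = 0.539), and its wild-type difference did not pass without wild-type pericyte replicate 2 (0.39; limma, adjusted p = 0.0704), wild-type endothelial replicate 1 (0.43; 0.0534) or replicate 2 (0.44; 0.0501). Tnfrsf11b, the RANKL decoy osteoprotegerin, lay at or below the array medians on all 16 arrays with differences of 0.18 and 0.22 (limma, adjusted p = 0.0311 and 0.00693). The wild-type call of Tnfrsf11b was lost without 1 of 6 of the 8 wild-type arrays, with differences of 0.16 to 0.18 and adjusted p from 0.0526 to 0.0818 (limma).

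Tnfrsf22 (ILMN_2454204), a mouse decoy receptor of TRAIL, read 8.35, 7.97, 7.57 and 7.61 in wild-type pericytes and 7.96, 7.44, 7.64 and 7.23 in knockout pericytes. Endothelial values were 8.91, 8.85, 8.71 and 9.01 in wild type and 8.63, 8.35, 8.16 and 8.70 in knockout. Pericytes were lower in each genotype with no overlap, with differences of -1.0 and -0.89 (limma, adjusted p = 0.000347 and 0.000951). With the keratinocyte covariate the knockout difference of Tnfrsf22 was -0.35 and did not pass (limma, adjusted p = 0.558), nor did it at -0.50 without the 3 keratinocyte-high arrays (limma, adjusted p = 0.279). The knockout difference of Il10rb was likewise smaller on both terms, at -0.18 and -0.20, and did not pass (limma, adjusted p = 0.577 and 0.358). Other knockout calls were lost while the difference itself shrank by a smaller share or grew. Lifr was 0.62 with the covariate and 0.59 without those arrays (limma, adjusted p = 0.0941 and 0.0757), against 0.44 with neither. Il2rg was -0.55 and -0.52 (limma, adjusted p = 0.093 and 0.0701), and Tnfsf10 -0.35 and -0.37 (limma, adjusted p = 0.432 and 0.337). Tnfaip3 went from 0.87 to 0.62 with the covariate (limma, adjusted p = 0.361) and to 0.64 without those arrays. Tnfrsf11b went from 0.22 to 0.18 with the covariate (limma, adjusted p = 0.395) and to 0.17 without those arrays. With the covariate alone Il4ra at 0.87 and Il6ra at 0.47 did not pass (limma, adjusted p = 0.0613 and 0.0823). Without those arrays alone, which leaves 1 knockout pericyte array, Csf2rb at -0.92 did not pass (limma, adjusted p = 0.0508).

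The remaining 8 genes carry family names without being ligands or receptors of these families. Tnfaip1 (ILMN_2429800), an adaptor of a ubiquitin ligase, read 9.06, 8.49, 8.37 and 9.30 in wild-type pericytes and 8.88, 8.31, 8.66 and 8.24 in knockout pericytes, while the 8 endothelial arrays lay between 10.02 and 10.17. Pericyte arrays spread widely and all stayed below the narrow endothelial range, 2.48-fold lower in wild type and 2.97-fold lower in knockout (limma, adjusted p = 2.01e-05 and 2.67e-06). Tnfaip2 was higher in pericytes by 1.16 and 0.99, on all of its probes. Tnfaip3, the NF-kB inhibitor A20, read 8.52, 8.61, 8.54 and 9.30 in wild-type pericytes, 8.78, 9.15, 9.0 and 9.09 in knockout pericytes, 7.57, 7.71, 7.44 and 8.20 in wild-type endothelial cells and 7.68, 8.32, 8.34 and 8.21 in knockout endothelial cells. The cell types did not overlap, and the differences were 1.01 and 0.87 (limma, adjusted p = 0.000729 and 0.00272). Tnfaip8 was higher by 0.40 and 0.38, and Tnfaip8l1 was lower with -0.31 and -0.47. Il1rl1l, which RefSeq names Tmed1, and Tnfaip8l3 passed in knockout hosts with 0.37 and 0.17 and not in wild type with 0.14 and 0.11, and Il4i1 passed in neither.

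**Figure D4:**
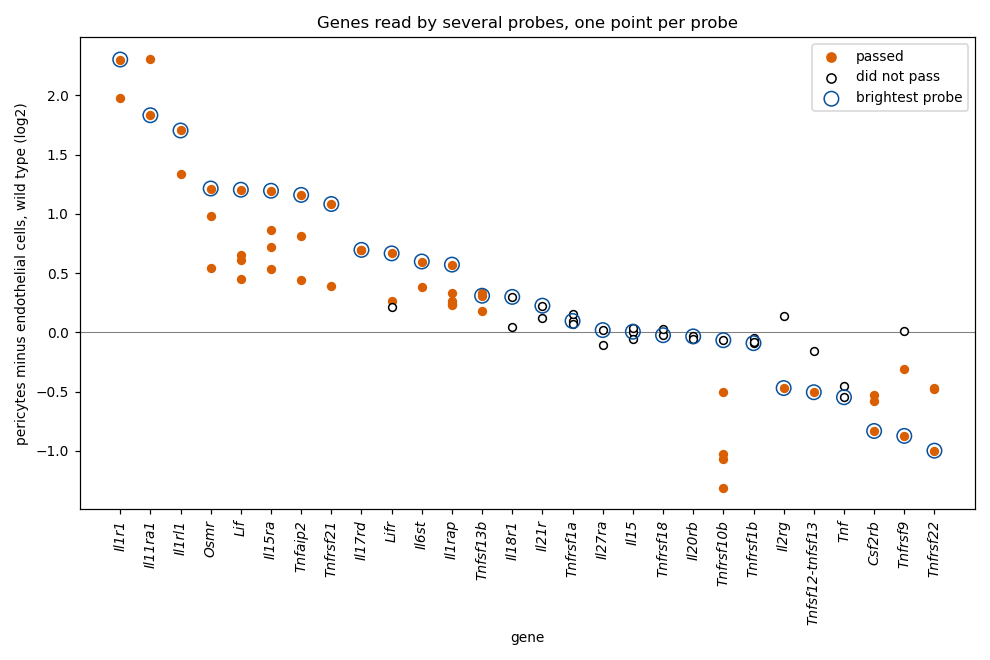
Wild-type log2 difference between pericytes and endothelial cells for each probe of the 28 genes read by several probes, filled where the probe passed and ringed for the brightest one. Tnfrsf10b stands out, since its brightest probe lies near 0 and its other 4 probes lie between -0.51 and -1.31.

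Probes of 1 gene could disagree in call, as 5 of the 28 genes with several probes did in wild type, but called probes of 1 gene never pointed in opposite directions in either genotype. Tnfrsf10b, the mouse TRAIL death receptor, differed most between its probes. The brightest probe (ILMN_2945095) ranged from 8.57 to 9.10 over all arrays and did not pass (-0.07 in wild type; limma, adjusted p = 0.718). A second probe (ILMN_1230700) read 7.32, 7.51, 7.0 and 7.09 in wild-type pericytes against 8.49, 8.54, 8.39 and 8.74 in wild-type endothelial cells, with no overlap. That probe differed by -1.31 in both genotypes, and the 3 others by -0.51 to -1.06 in wild type and -0.57 to -1.08 in knockout. The count of receptors above enters Tnfrsf10b as not passed. Tnfsf12-tnfsf13, a read-through transcript of TWEAK and APRIL, was lower in pericytes on its brightest probe, with -0.51 and -0.36 (limma, adjusted p = 0.00363 and 0.0299), and its other probe did not pass.

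In both genotypes 35 genes did not pass between the cell types, against 66.7% of all genes. They were 11 ligands (Il1a, Il1b, Il10, Il13, Il15, Il24, Csf2, Csf3, Tnf, Tnfsf8 and Tnfsf14), 22 receptor chains, Tnfrsf23 and Il4i1. The receptor chains not yet named were Il10ra, Il12rb2, Il20rb, Il21r, Il28ra, Tnfrsf5, Tnfrsf11a, Tnfrsf14, Tnfrsf18, Tnfrsf19, Tnfrsf25 and Tnfrsf26. Of the 79 genes, 15 lay at or below the array median on all 16 arrays, against 20.1% of all genes. The scale compresses differences of such dim members, though among them Tnfrsf11b passed in both genotypes and Tnfaip8l3 in knockout. Above the median on all 4 arrays of a group were 31 genes in wild-type pericytes (42% of all genes), 33 in knockout pericytes (43.7%), 22 in wild-type endothelial cells (43.2%) and 21 in knockout endothelial cells (43.5%).

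Between knockout and wild-type pericytes 0 of the 79 genes passed (limma), against 0.0786% of all genes, and 6 had an unadjusted p under 0.05, against 7.8%. Il11 had the smallest p of the members. Its knockout pericyte arrays (7.45, 7.52, 7.46 and 7.21) all lay below its wild-type ones (7.64, 7.77, 7.76 and 8.25), the 1 gene of 79 without overlap, against 3.19% of all genes. The mean was 7.41 ± 0.13 in knockout and 7.85 ± 0.27 in wild type (SD, n = 4), a difference of -0.44 (SE 0.11; limma, unadjusted p = 0.00071, adjusted p = 0.129). Over the alternatives it ranged from -0.51 to -0.31, with adjusted p from 0.0729 to 1 (limma), and it was -0.40 without the keratinocyte-high arrays, where the single knockout pericyte array left is assumed to vary like the other groups.

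Tnfrsf21 differed by -0.39 in knockout pericytes (limma, adjusted p = 0.554), with knockout values of 8.03 to 8.21 inside the wild-type range of 7.92 to 8.84. By unadjusted p, the next with lower values in knockout were Tnfrsf14, the receptor of LIGHT, with -0.17, Tnfsf9 with -0.20 and Il1b with -0.16. On the higher side, by the same order, stood Il1rl1l with 0.19, Tnfrsf12a with 0.27, Il1rl1 with 0.27, Il17re with 0.14 and Il1a with 0.13. None of these passed (limma, adjusted p from 0.638 to 0.769). Leaving out 1 array moved 6 of these 10 named differences, Il11 not among them, by over 1.5 times. Without wild-type pericyte replicate 2 Tnfrsf14 was at -0.07, Tnfsf9 at -0.06 and Il1rl1 at 0.14, and without replicate 3 Il1b was at -0.08 and Tnfrsf21 at -0.59. Il1a was at 0.06 without knockout pericyte replicate 2. In knockout pericyte replicates 2 to 4 keratinocyte markers were high, and so were granulocyte markers (means of 7.82, 7.72 and 8.23, against 6.77 in replicate 1) and tumour epithelium markers (7.97, 8.06 and 9.04, against 7.15). Wild-type pericyte replicates 1 to 4 had tumour epithelium means of 7.04, 6.85, 7.85 and 7.67, and granulocyte means between 6.78 and 6.99. Only 3 granulocyte and 4 tumour epithelium markers were measured, and 0 of either list passed between genotypes in pericytes. Of 19 keratinocyte markers 2 passed, as higher in knockout. The part of these cells in the genotype differences was not tested. Without knockout pericyte replicates 2 to 4 Tnfrsf12a turned to -0.03 and Il17re to -0.07. One further Lif probe (ILMN_1234792) passed without knockout pericyte replicate 1 (-0.31; limma, adjusted p = 0.0439), and with all arrays it differed by -0.23 (limma, adjusted p = 0.45).

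In endothelial cells 0 of 79 genes passed between the genotypes (limma), against 0.0121% of all genes, and 1 had an unadjusted p under 0.05, against 4.11%. That gene was Tnfrsf22, whose knockout arrays (8.16 to 8.70) lay below its wild-type arrays (8.71 to 9.01), the 1 gene without overlap, against 2.22% of all genes. Its difference was -0.41 (SE 0.17; limma, adjusted p = 1), and in pericytes it was -0.31 (limma, adjusted p = 0.77). Tnfaip3 differed by 0.41, Il6 by 0.27, Il18rap by 0.14, Tnfaip8l1 by 0.12 and Csf3 by 0.11 towards knockout. Tnfrsf21 differed by -0.31, Tnfsf12-tnfsf13 by -0.21, Il6ra by -0.15 and Il1b by -0.15, all at a limma adjusted p of 1. Of the 10 differences named in endothelial cells, 5 moved by over 1.5 times without 1 array. Without knockout replicate 4 Tnfaip8l1 was at 0.05 and Il18rap at 0.05, and without knockout replicate 3 Tnfsf12-tnfsf13 was at -0.07. Without wild-type replicate 3 Csf3 was at 0.06, and without wild-type replicate 2 Il1b was at -0.07.

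The difference between the knockout effects in the cell types was passed by 0 of 79 genes (limma), against 0.00605% of all genes, and 2 had an unadjusted p under 0.05, against 4.66%. For Il11 the effect was -0.44 in pericytes and 0.07 in endothelial cells, a difference of -0.51 (SE 0.15; limma, unadjusted p = 0.00354, adjusted p = 1). The other was Il6ra, with 0.11 and -0.15 and a difference of 0.26. Il1rl1l, Il17rc, Il1rl1 and Tnfrsf18 had positive differences of 0.23, 0.28, 0.32 and 0.12, and Tnfrsf14, Tnfsf9, Il1r1 and Tnfaip8l1 negative ones of -0.17, -0.22, -0.25 and -0.16. Leaving out 1 array moved Tnfrsf14, Tnfsf9 (both without wild-type pericyte replicate 2, to -0.07 and -0.08), Il1rl1 (0.20, the same array), Tnfrsf18 (0.06, knockout pericyte replicate 3), Il1r1 (-0.17, wild-type endothelial replicate 3) and Tnfaip8l1 (-0.09, knockout endothelial replicate 4) by over 1.5 times.

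**Figure D5:**
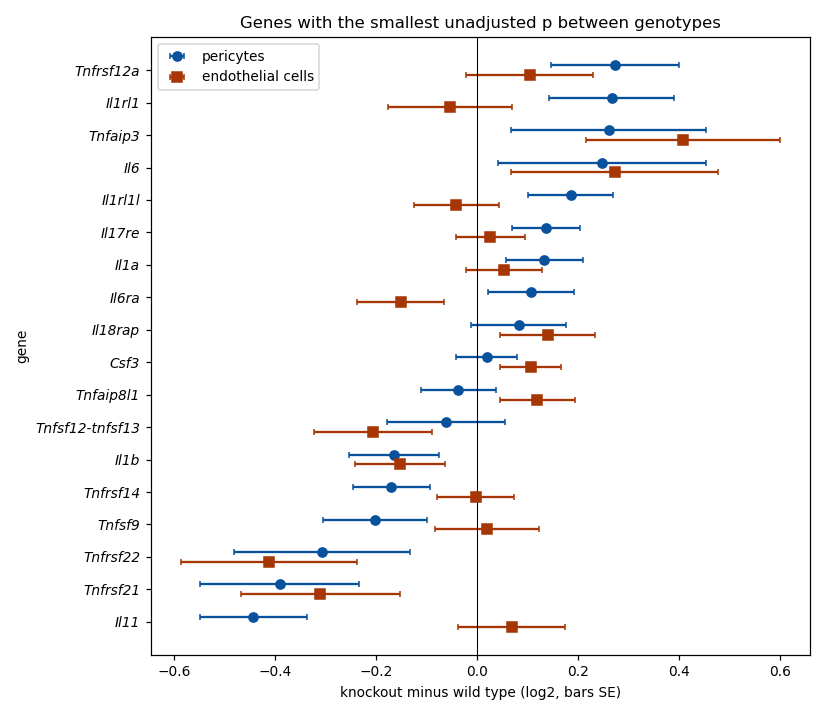
Knockout minus wild type on the log2 scale for the genes with the smallest unadjusted p in pericytes or in endothelial cells, with bars for the SE. Il11 lies at -0.44 in pericytes and 0.07 in endothelial cells, Tnfrsf21 and Tnfrsf22 lie below 0 in both, and 0 of these differences passed after adjustment.

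Genes that act with these families but lie outside the symbol rule were followed as lists, read against the 12.8% of all genes that were higher and 13.3% that were lower in wild type and the 13.4% and 13.5% in knockout. Of 4 measured IL-6 family genes, 1 was higher in wild-type pericytes than in wild-type endothelial cells, and 2 were higher in knockout, with 0 lower. Among the knockout calls was Cntfr, the receptor of ciliary neurotrophic factor, higher in pericytes by 0.38. Its wild-type difference of 0.10 did not pass. Of 18 JAK and STAT transducers and feedback genes, 4 were higher and 2 lower in wild-type pericytes, and 3 and 2 in knockout. Stat5a was higher in both genotypes (0.80 and 0.66), the feedback genes Socs2, Socs3 and Cish in wild type (0.73, 0.54 and 0.49), and Jak3, the partner of the common gamma chain, was lower in both (-0.40 and -0.39). Of 29 TNF, IL-1 and NF-kB signal genes, 4 were higher and 4 lower in wild type, and 5 and 5 in knockout, near the share of all genes in each direction. Nfkbiz, an NF-kB cofactor, was higher by 0.80 and 0.57, Birc2 by 0.47 and 0.46, and the death protease Casp8 was lower with -1.10 and -1.24. Of 7 TNF superfamily genes with other symbols, Ngfr (1.73 and 1.38) and Fas (0.38 and 0.29) were higher in both genotypes, and Eda2r was lower in wild type (-0.21), while its -0.12 in knockout did not pass. Of 6 receptor partners, Kit (-1.62 and -1.73), its ligand Kitl (-0.83 and -1.02) and Sigirr, a brake on IL-1 receptors (-0.42 and -0.31), were lower in both. In these 5 lists 0 genes passed between the genotypes in either cell type (limma), and Stat5a had a small p in endothelial cells, 0.51 higher in knockout (limma, unadjusted p = 0.000405, adjusted p = 0.599).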

How the data were processed

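RNA of pericytes and endothelial cells sorted from 67NR tumours was measured on 16 arrays in 4 groups of 4, grouped by the labels. The authors deposited normalized probe intensities on a log2 scale, and per the submitters' processing notes GenomeStudio and lumi were used. Versions, transform, background correction and filters were not given in the sources used here. This table has 0 columns of other samples, and the largest difference from the repository's value table was 5e-09. The values were used as deposited, and every one of 24040 probes was tested without a filter. A group-means model was fitted with limma 3.58.1 in R 4.3.3 (12 residual and 3.82 prior degrees of freedom, two-sided moderated tests), with Benjamini-Hochberg adjustment over all probes and a threshold of 0.05. The 5 contrasts were knockout against wild type in each cell type, the difference of these effects, and the cell types against each other within each genotype.

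The members and lists were chosen with earlier results of these data known. Named were Cd248, up to 12 genes per direction and cell type comparison with the largest called and non-overlapping difference, the 5 with the smallest p per direction and knockout contrast, and a fixed set of family members. Others were named to account for every member, after their values were seen. Symbols were matched to RefSeq (GRCm38.p6), 78 by accession and 1 by symbol. Of the fixed set, Il34, Csf1r, Il7, Il18, Tnfsf15 and Tnfaip6 had no probe under these symbols in the authors' table, so they could not be analysed. On simulated data of this layout, limma recovered 74.6% of changes of 0.5 log2 between genotypes in pericytes and 71.6% in endothelial cells. The share was 46.3% for a difference between the genotype effects, and 70.1% and 65.7% between cell types in wild type and knockout. Each simulated contrast held 67 changes of 0.5, 67 of 1 and 66 of 2 among 24040 probes. In the real data 16 probes passed between genotypes in pericytes and 4 in endothelial cells. With fewer changes the adjustment asks for a smaller p. The simulated shares therefore do not say how many real changes between genotypes would have passed. The alternatives covered filters, variance models, array weights, normalization, a replicate block, subsets of arrays and a keratinocyte covariate. The number of arrays limits the precision. Figures were drawn with matplotlib 3.10.9.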

Additional observations from a re-analysis of the deposited data

Results flagged for a closer look

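Of 200 groups of 4 arrays checked for single arrays far from the others, 13 held one, where chance alone gives about 1 in 20, or 10. In wild-type pericytes these were Tnfaip3 in replicate 4 at 9.30, against 8.52 to 8.61 in the other arrays, and Tnfrsf14 in replicate 2 at 7.25, against 6.82 to 6.87. In knockout pericytes Il6 read 10.53 in replicate 2 against 9.70 to 9.84, Il2rg 7.18 in replicate 2 against 6.94 to 6.96, and Il11ra1 11.93 in replicate 1 against 11.67 to 11.71. Knockout pericyte replicate 3 stood apart for Csf2rb2 at 7.11, against 6.89 to 6.90, and for Il6ra at 7.39, against 7.42 in each of the others. In wild-type endothelial cells replicate 1 stood apart for Csf2 at 6.75 (others 6.91 to 6.93) and Il15 at 7.28 (6.88 to 6.94), replicate 2 for Il11 at 6.98 (6.78 to 6.81), and replicate 3 for Tnfrsf21 at 7.14 (7.52 to 7.57). In knockout endothelial cells they were Il2rg in replicate 2 at 7.54 (7.46 to 7.47) and Csf3 in replicate 4 at 7.18 (7.0 to 7.03).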

How the results depend on the processing

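Of 109 named differences, 62 kept their direction and their side of the threshold under every alternative run, and 0 of the 63 called ones reversed. In the cell type comparisons 74 member probes passed in wild type and 71 in knockout. With the median filter and 1 probe per gene 38 and 40 passed, of 49 tested, with the upper-quartile filter 34 and 34, of 39 tested, and with a log2 size of at least 1 24 and 22. The filters let fewer probes enter, and the size asks for a larger difference. With the keratinocyte covariate 42 passed in knockout, while calls over all probes went from 6366 to 2793, and the cause was not tested. Leaving out single arrays gave 69 to 75 in wild type and 65 to 77 in knockout, 0 to 1 between genotypes in pericytes, and 0 to 0 in endothelial cells and for the difference of effects. The call in pericytes came without knockout replicate 1, when calls over all probes went from 16 to 411.

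The values that reversed were small and uncalled. Between genotypes in pericytes Il17re turned to -0.10 and Il1a to -0.0168 with the covariate, and Il17re to -0.0665 and Tnfrsf12a to -0.0297 without the 3 keratinocyte-high arrays, an alternative chosen after seeing the data. In the wild-type cell type comparison Il15 turned to -0.0549 with array weights and -0.0063 with quantile normalization, and Il1a to -0.0081 with quantile normalization and -0.0161 with the covariate. Without single arrays Il15 ran from -0.0376 to 0.0979, Il1a from -0.0071 to 0.0417, Il1b from -0.0029 to 0.156 and Tnfrsf1b from -0.245 to 0.0127. In knockout Il15 turned to 2e-04 with array weights and ran from -0.0523 to 0.0413 without single arrays. With the covariate Il1a, Il1b and Tnfrsf1b turned to -0.0856, -0.13 and 0.0601, and without the keratinocyte-high arrays to -0.0257, -0.0245 and 0.0311.

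Deviations of same-numbered arrays correlated at 0.03 to 0.38 between the cell types in wild type and 0.04 to 0.20 in knockout, with the same number the best match in 7 of 8 cases, and at -0.13 to 0.39 between genotypes, with 3 of 8. Not every pair passed 0.1 in either kind, so the numbers were not taken as pairs, and the first is a hint from the data only. With the replicate number as a block, 73 and 71 probes passed between cell types in wild type and knockout, and 0 in each of the other contrasts. Dim members, compressed near the floor, limit what could be seen.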

Other observations

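Within a group, some arrays held more of the members' highest values than others. Wild-type endothelial replicate 3 was the highest of its group for 43% of the 79 genes and for 23.2% of all genes. Knockout endothelial replicate 1 was highest for 40.5% of members and 27.3% of all genes, knockout pericyte replicate 2 for 39.2% and 24.9%, and wild-type pericyte replicate 2 for 34.2% and 28.7%. No test was made of these shares. Of 4 measured T and NK cell markers, Thy1 and Cd3e were higher in the pericyte sort by 4.21 and 1.66 in wild type, while Cd2 and Cd8a at 0.06 and 0.06 did not pass, and the macrophage list averaged 6.79 to 7.07 over all arrays.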
